A study of Mus musculus domesticus and Mus musculus domesticus x Mus musculus castaneus and Mus musculus castaneus with 27 samples.

Results

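Cholinergic transmission genes encode the proteins that make acetylcholine, load it into vesicles, take choline back up, break the transmitter down and receive it. The set described here was chosen by symbol and holds 9 genes: Chat, Slc18a3, Slc5a7, Ache, Chrna3, Chrna4, Chrna7, Chrnb2 and Chrnb4. Of these, 8 were found by gene identifier among the 27071 identifiers of the count table, and Chrnb2 was not analysed here. The rule itself uses no measured value.

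Motor neurons release acetylcholine at the neuromuscular junction and at collaterals within the spinal cord. Choline acetyltransferase (Chat) joins choline and acetyl-CoA, the vesicular acetylcholine transporter (Slc18a3) fills synaptic vesicles, acetylcholinesterase (Ache) cleaves the released transmitter and the high-affinity choline transporter (Slc5a7) recovers choline. Nicotinic receptors are pentamers of related subunits: alpha 4 commonly pairs with beta 2, alpha 3 with beta 4, and alpha 7 can form a channel by itself.

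Polyadenylated RNA was sequenced from mouse motor neuron cultures (MN) and from pluripotent stem cells (PSC), the cell state that such neurons are differentiated from. The MN groups were 129CAS (1 library), CAS129 (3), CAST/EiJ, written CAST (1), 129S6/SvEv, written 129 (2), and C57BL/6, written BL6 (7). The PSC groups were CAS129 (2), CAST (2) and BL6 (2). CAS129 and 129CAS are labelled as first-generation hybrids (Mmd x Mmc), without saying which strain was the mother, and no treatment or engineered allele is named for any group. Where the labels number the libraries of a group, they do not say whether these came from separate cultures or lines, so the p-values measure only the spread between libraries.

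The libraries held 4497912 to 13620056 counted reads, except the 129CAS MN library with 25686979 and the 129 MN libraries with 44572794 and 41751493. All values below are CPM, the reads of a gene relative to the scaled library size, and a change was called where the edgeR p-value adjusted over all genes tested lay under 0.05. The MN cultures carried motor neuron transcripts (7 of 8 listed markers higher than in PSC, none lower) but also mesenchymal ones, whose 8 listed markers summed to 6300.0 to 33380.0 CPM in MN and 239 to 3049 CPM in PSC. In CAS129 MN, 7 pluripotency markers summed to 373 to 1024 CPM, against 7.96 to 24.9 CPM in BL6 MN. RNA of MN and PSC was extracted with different kits, so that cell type and extraction cannot be told apart. In these bulk samples, fewer cells of a type and less RNA per cell cannot be told apart either.

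Chat and Slc18a3 form the cholinergic gene locus, in which the transporter gene lies inside the first part of the Chat gene on the same strand. In GRCm38 coordinates of the GENCODE M21 annotation, Chat spans chr14:32408203-32465989 and Slc18a3 chr14:32462438-32464850, both on the minus strand. Their exons, 4703 and 2413 bases in all, share 0 bases. Slc5a7 lies at chr17:54273590-54299034 on the minus strand. Ache lies at chr5:137287519-137294466 on the plus strand and shares 98 of its 4623 exonic bases (2.12%) with the long intergenic non-coding gene Gm42456 on the other strand, reads of which cannot be told apart without strand. Chrna3 (chr9:55010111-55026562) and Chrnb4 (chr9:55028154-55048779) are neighbours on the minus strand, Chrna4 lies at chr2:181018380-181043546 and Chrna7 at chr7:63098692-63212569, both also on the minus strand.

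Alpha and beta subunits differ at a loop of the acetylcholine binding site, where alpha subunits carry a pair of adjacent cysteines. Of the 4 listed subunits with values, the alpha genes were called higher in MN than in PSC and the beta gene was not called. That split did not hold for all alpha genes: Chrna5 (log2 fold change 1.09) was higher, but Chrna9 (-3.08) and Chrna1 (-2.02) were lower. The filter on low counts (1 CPM in at least 2 libraries) was passed by Chrna9 only with PSC libraries and by Chrna3 only through MN. The directions of Chrna9 and Chrna3 were therefore largely set by the filter. The stretches of coding sequence below show the cysteine difference for the 4 listed subunits. Each is 60 bases, written 5′ to 3′ from the longest complete coding sequence of the gene in the GENCODE M21 transcripts, with the codon pair of the cysteines, or the codons aligned to it in the beta subunit, in capitals.
Chrna3, coding bases 637 to 696: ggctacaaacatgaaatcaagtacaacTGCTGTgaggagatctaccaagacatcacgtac
Chrna4, coding bases 652 to 711: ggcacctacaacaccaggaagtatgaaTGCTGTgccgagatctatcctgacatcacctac
Chrna7, coding bases 607 to 666: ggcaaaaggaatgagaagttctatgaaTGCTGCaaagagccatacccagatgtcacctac
Chrnb4, coding bases 610 to 669: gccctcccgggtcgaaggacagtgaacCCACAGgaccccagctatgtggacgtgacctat
In each of the 3 alpha genes this was the single pair of adjacent cysteine codons in the coding sequence, and Chrnb4 had 0 such pairs.

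The genes for making, loading, recovering and cleaving acetylcholine, and Chrna3, Chrna4 and Chrna7, were higher in motor neurons than in stem cells. Chrnb4 was not called. With BL6, CAST and CAS129 libraries fitted together (11 MN and 6 PSC), 7 of the 8 cholinergic genes were higher in MN and 0 lower. Over the 15596 genes tested, 74.6% were called, 36.1% as higher and 38.5% as lower. The median log2 fold change of the 8 genes was 6.95, and that of all genes tested was -0.05. Chat, Slc18a3, Ache and Chrna3 did not reach 1 CPM in 2 PSC libraries, so they passed the filter on low counts through MN. A call of lower was thus hardly open to them, which limits what the count of 7 and the median can show. The same limit applies to the MN against PSC counts given further below. For 6 of the 8 genes all 14 MN libraries lay above all 6 PSC libraries, as for 19% of the 15843 genes with at least 1 CPM in 2 libraries.

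**Figure D1:**
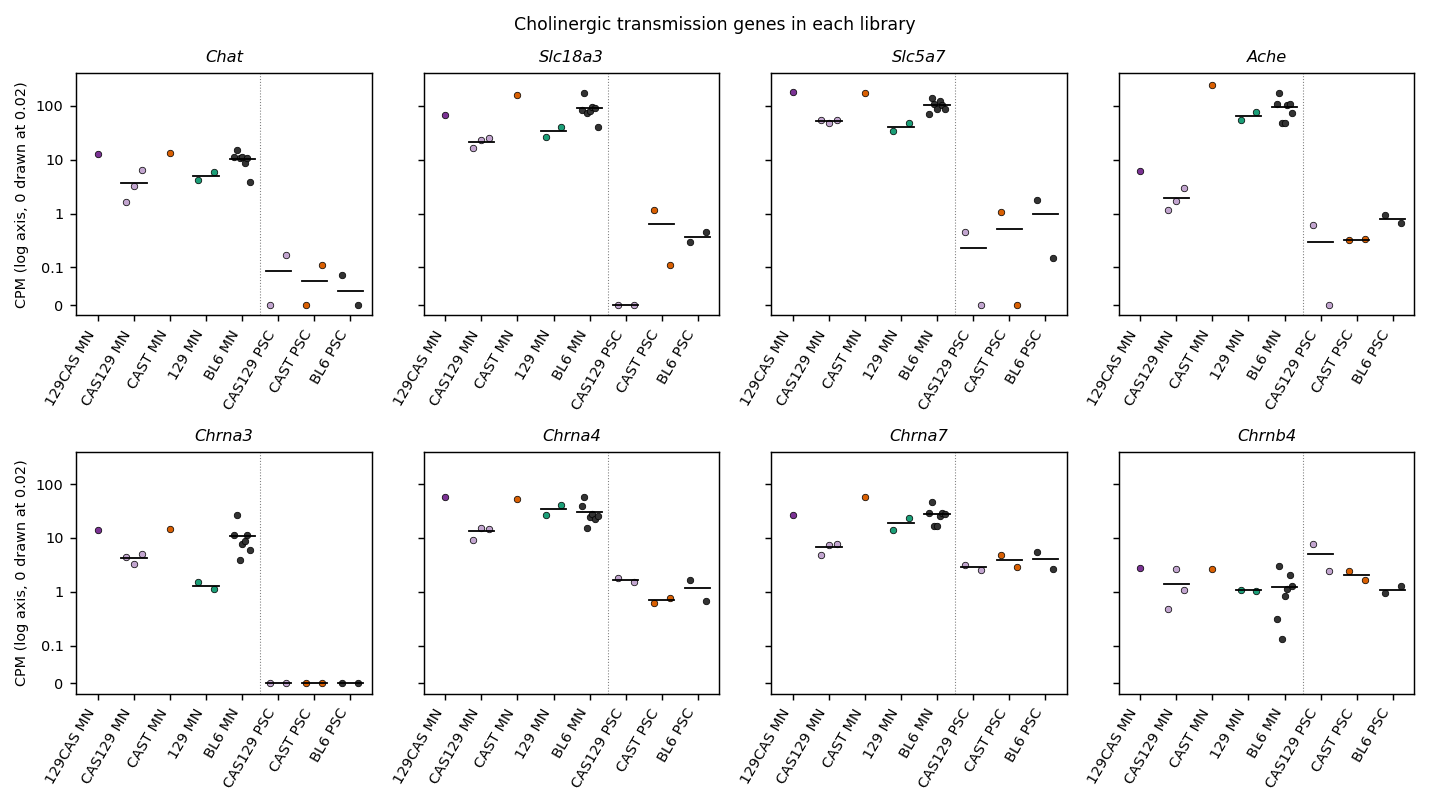
Level of each gene in every library, as CPM on a log axis on which 0 is drawn at 0.02; points are libraries, lines are means of groups with more than 1 library, and the dotted line parts motor neuron groups (left) from stem cell groups (right). Chat, Slc18a3, Slc5a7, Ache, Chrna3 and Chrna4 lie higher in all 14 MN libraries than in any PSC library, while the Chrnb4 points of MN and PSC overlap.

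Chat was close to absent in stem cells. It had 1.64, 3.18 and 6.42 CPM in CAS129 MN, 13.3 CPM in CAST MN and 3.88 to 14.9 CPM (median 10.9) in BL6 MN. The 6 PSC libraries held 3 Chat counts in all, 1 in each genotype, and 3 of them had none. All 14 MN libraries lay above the highest PSC library, at 0.171 CPM. The summed counts gave a ratio of 181, with a 95% interval of 61.7 to 879 that covers counting error only, and the fitted log2 fold change was 6.91 (SE 0.63, adjusted p = 3.31e-08).

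Slc18a3, which shares the locus, was the more abundant of the pair. It had 16.2, 23.3 and 25.5 CPM in CAS129 MN, 159 CPM in CAST MN and 39.9 to 173 CPM (median 84.7) in BL6 MN. In PSC it had 0 and 0 CPM in CAS129, 1.16 and 0.112 CPM in CAST, and 0.291 and 0.447 CPM in BL6. MN and PSC did not overlap, and the log2 fold change was 7.78 (SE 0.48, adjusted p = 3.883e-10). Against the 0 counts of the CAS129 PSC libraries, taken as a floor of 3 counts over the group, CAS129 MN was at least 89.3-fold higher.

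Slc5a7, the step that is thought to limit acetylcholine supply, had 54.7, 46.9 and 54.8 CPM in CAS129 MN, 172 CPM in CAST MN and 71.5 to 141 CPM (median 105) in BL6 MN. In PSC it had 0.454 and 0 CPM in CAS129, 1.06 and 0 CPM in CAST, and 1.82 and 0.149 CPM in BL6. All MN libraries lay above all PSC libraries (log2 fold change 7.04, SE 0.50, adjusted p = 2.103e-09). Within PSC, replicate 1 was the higher of the pair in each genotype, and it was also the higher for Col1a1, a fibroblast collagen gene, with 705 and 154 CPM in CAS129, 1713 and 795 CPM in CAST, and 1079 and 190 CPM in BL6 in replicates 1 and 2. The part of those other cells in the low PSC values was not tested. With the replicate 2 libraries as the only PSC libraries, a choice made after the data were seen, 7 of 8 genes were called higher, where 34.9% of 15255 genes were called higher.

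Ache was high in the motor neurons of inbred strains and low in the hybrids. It had 1.15, 1.68 and 2.93 CPM in CAS129 MN, 237 CPM in CAST MN and 47.1 to 169 CPM (median 101) in BL6 MN. In PSC it had 0.606 and 0 CPM in CAS129, 0.317 and 0.336 CPM in CAST, and 0.945 and 0.670 CPM in BL6. MN and PSC did not overlap in any genotype, although the CAS129 MN values stood near the PSC values. The log2 fold change was 7.00 (SE 0.71, adjusted p = 1.11e-07).

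Among the receptor subunits, Chrna3, the alpha subunit best known from autonomic ganglia, was not counted at all in stem cells. It had 4.42, 3.35 and 4.95 CPM in CAS129 MN, 14.8 CPM in CAST MN and 3.91 to 26.8 CPM (median 8.80) in BL6 MN. All 6 PSC libraries had 0 counts. With a floor of 3 counts over the 6 libraries, Chrna3 was at least 200-fold higher in MN (adjusted p = 5.213e-07).

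Chrna4, an alpha subunit of the brain's main high-affinity receptor, had 9.33, 15.4 and 14.9 CPM in CAS129 MN, 53.2 CPM in CAST MN and 15.0 to 58.2 CPM (median 25.6) in BL6 MN. In PSC it ranged from 0.634 to 1.82 CPM. The groups did not overlap, and the log2 fold change was 4.21 (SE 0.47, adjusted p = 3.565e-07).

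Chrna7, the subunit of the homomeric, alpha-bungarotoxin-binding receptor, had a higher level in stem cells than Chrna3 and Chrna4. It had 4.75, 7.37 and 7.88 CPM in CAS129 MN, 57.2 CPM in CAST MN and 16.3 to 47.3 CPM (median 28.3) in BL6 MN. In PSC it had 3.18 and 2.56 CPM in CAS129, 4.75 and 2.91 CPM in CAST, and 5.45 and 2.68 CPM in BL6. Of the CAS129 MN libraries, 1 lay below the highest PSC library, and the other 13 of 14 MN libraries lay above it. The log2 fold change was 2.29 (SE 0.39, adjusted p = 3.921e-05), smaller than those of the other 6 genes called.

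Chrnb4, the beta subunit that accompanies alpha 3 in ganglia, had 0.491, 2.68 and 1.10 CPM in CAS129 MN, 2.70 CPM in CAST MN and 0.135 to 2.97 CPM (median 1.13) in BL6 MN. In PSC it had 7.57 and 2.39 CPM in CAS129, 2.43 and 1.68 CPM in CAST, and 0.945 and 1.27 CPM in BL6. The groups overlapped, and the log2 fold change was -0.74 (SE 0.59, 95% interval -1.99 to 0.50, adjusted p = 0.2624). Its neighbour Chrna3 thus had 872 counts in MN and 0 in PSC, while Chrnb4 had 124 counts in MN and 132 in PSC over the same libraries. Scaled to library size, the summed Chrnb4 counts gave a ratio of MN to PSC of 0.645. Its 95% interval of 0.501 to 0.831 covers counting error only.

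Within each genotype the direction was the same for the 7 genes, but fewer passed the test in the hybrid. In BL6, 7 of 8 were higher in MN, with 70.2% of 15846 genes called, 36% as higher and 34.2% as lower. In CAST, with 1 MN library assumed to vary like the other groups, 7 of 8 were higher (56% called, 30.3% higher and 25.7% lower). With the CAST libraries fitted by themselves, 4 of the 8 genes passed the filter on low counts and 3 were called. In CAS129, 5 of 8 were higher (54.4% called, 30.4% higher and 23.9% lower). The 3 not called there were Ache (log2 fold change 2.47, SE 1.04, adjusted p = 0.0541), Chrna7 (1.13, SE 0.51, adjusted p = 0.06993) and Chrnb4 (-1.85, SE 0.86, adjusted p = 0.07854). These stood close to the threshold: of 27 alternative settings, 6 called Ache and 1 called Chrna7 higher, and 8 called Chrnb4 lower.

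The difference between genotypes in the MN against PSC change was itself tested. For CAS129 against BL6, edgeR called 0 of 8 genes, with 18.2% of all genes called (13.7% higher and 4.53% lower) and a median difference over all genes of 0.26 on the log2 scale. Chrna3 had 0 counts in all PSC libraries, so its difference was undetermined here and for CAST against BL6. Those of Slc18a3 (SE 3.46) and Chat (SE 2.24) were poorly determined, with 0 and 1 counts in CAS129 PSC. At an unadjusted p under 0.05 there were 3 (Ache, Chrna4 and Chrna7, each with a smaller rise in CAS129), and DESeq2 called the same 3. The Ache difference was -4.26 on the log2 scale (SE 1.69, adjusted p = 0.08998 with edgeR). It rests on CAS129 PSC replicate 1, whose 4 Ache counts are all that CAS129 PSC had. Without that library the difference was 0.97, but 0 Ache counts then remained in CAS129 PSC, so this value was poorly determined. For CAST against BL6, edgeR and DESeq2 each called 0 of 8 genes (7.28% of all genes called with edgeR, 4.55% higher and 2.73% lower), and 1 gene, Ache, had an unadjusted p under 0.05.

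Between stem cells of different genotype, cholinergic genes were too low to compare in most cases. Only Slc5a7, Chrna4, Chrna7 and Chrnb4 passed the filter on low counts. For CAS129 against BL6 PSC, edgeR called 0 of the 4 (25.8% of 13795 genes called, 8.72% higher and 17% lower), while 1 had an unadjusted p under 0.05 and DESeq2 called 1. That gene was Chrnb4, with 7.57 and 2.39 CPM in CAS129 PSC and 0.945 and 1.27 CPM in BL6 PSC, no overlap, and a log2 fold change of 2.27 (SE 0.73, adjusted p = 0.0522). Of 13 alternative settings, 6 placed it past the threshold, leaving out CAS129 PSC replicate 2 among them (adjusted p = 0.03645). For CAST against BL6 PSC, 0 of the 4 were called by edgeR or DESeq2 and 0 had an unadjusted p under 0.05 (10.5% of genes called, 5.74% higher and 4.81% lower).

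Motor neurons of the 129 strain had less of the genes for vesicle loading and choline uptake and far less Chrna3 than those of BL6, while Chrna4 was not called. Of the 8 genes, edgeR called 3 lower in 129 MN and 0 higher, where 36.4% of 14837 genes were called, 18.1% as lower and 18.3% as higher. Slc5a7 had 33.4 and 48.6 CPM in 129 MN, both below the lowest of the 7 BL6 MN libraries (71.5 CPM), with a log2 fold change of -1.37 (SE 0.24, adjusted p = 0.0006783). Chrna3 had 1.497 and 1.114 CPM in 129 MN, also below all 7 BL6 MN libraries (lowest 3.91 CPM), with a log2 fold change of -3.09 (SE 0.65, adjusted p = 0.002531). Both calls held in all 21 alternative settings. The share of all genes for which 129 MN lay below every BL6 MN library by CPM was not determined.

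Slc18a3 had 26.3 and 40.4 CPM in 129 MN, the higher of which overlapped the lowest BL6 MN library at 39.9 CPM. Its log2 fold change was -1.49 (SE 0.42, adjusted p = 0.01476), and the call was lost without 129 replicate 1 (adjusted p = 0.1508) and without 129 replicate 2 (adjusted p = 0.05623). Chat, with 4.12 and 5.99 CPM in 129 MN and a mean of 10.2 ± 3.35 CPM in BL6 MN (SD, n = 7), was not called (-1.05, SE 0.46, adjusted p = 0.08919). Chrna4, with 27.02 and 40.99 CPM in 129 MN and a mean of 30.3 ± 14.2 CPM in BL6 MN (SD, n = 7), had a log2 fold change of 0.12 with a 95% interval of -0.72 to 0.96. Ache (-0.55, interval -1.46 to 0.36), Chrna7 (-0.58, interval -1.36 to 0.19) and Chrnb4 (-0.27, interval -1.92 to 1.38) were not called either.

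**Figure D2:**
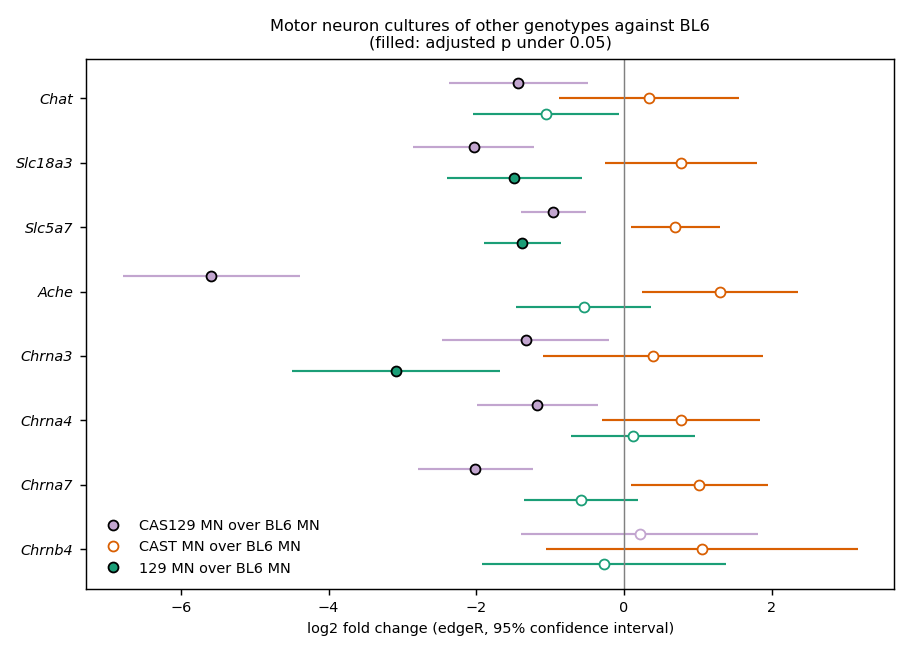
Fitted log2 fold change of each gene in CAS129, CAST and 129 motor neurons against BL6 motor neurons, with 95% confidence intervals; filled points have an adjusted p under 0.05 and open points do not. Ache in CAS129 stands lowest at -5.59, Chrna3 in 129 lies at -3.09, and all 8 CAST points lie above 0 without being called.

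Marker genes of other cells also differed between 129 MN and BL6 MN. The 8 mesenchyme markers summed to 6300 and 10340 CPM in 129 MN and 14510 to 33380 CPM in BL6 MN. The 8 pan-neuronal markers, of which 0 were called, summed to 1843 and 2747 CPM in 129 MN and 1403 to 4266 CPM in BL6 MN. In 129 MN 4 of the 8 motor neuron markers were lower and 0 higher. The part of cell makeup in the lower cholinergic values, and that of the greater depth of the 129 libraries, was not tested.

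Levels were also set against Tubb3, the neuronal beta-tubulin gene. On that scale Slc18a3, Slc5a7 and Chrna3 of 129 MN lay below all BL6 libraries and Chrna4 lay above them, whereas by CPM Slc18a3 and Chrna4 overlapped BL6. Of the 14904 genes with at least 1 CPM in 2 MN libraries, 8.21% lay below on this scale and 24.2% above. Slc5a7 came to 7.07% and 8.15% of Tubb3 CPM in 129 MN and 9.36% to 22.2% in BL6 MN. Slc18a3 came to 5.57% and 6.78% in 129 MN and 7.46% to 18.5% in BL6 MN, and Chrna3 to 0.317% and 0.187% in 129 MN and 0.796% to 2.33% in BL6 MN. Chrna4 came to 5.72% and 6.88% in 129 MN and 3.05% to 5.58% in BL6 MN. Scaling to Tubb3 was added after the data were seen and carries no test.

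**Figure D3:**
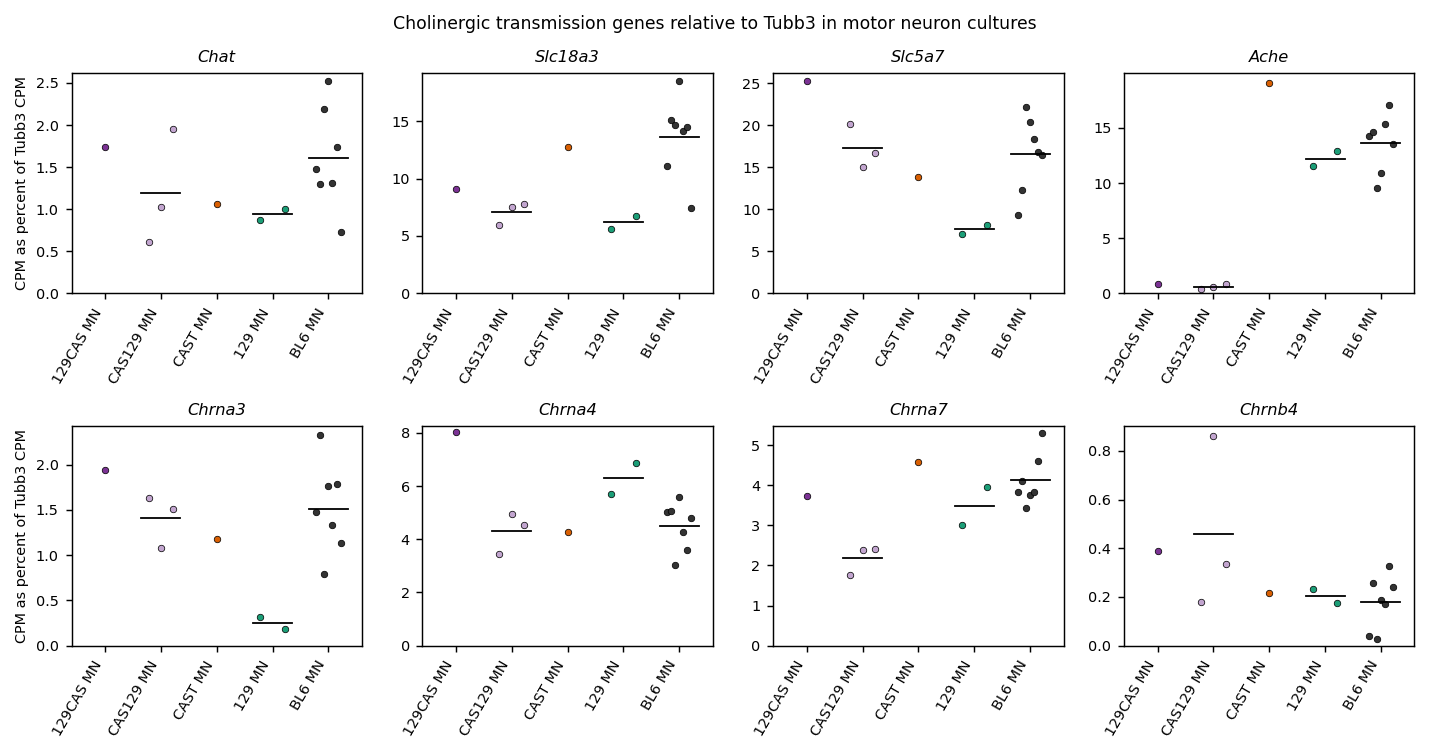
Level of each gene as a percentage of the Tubb3 CPM of the same library, in the 5 motor neuron groups, with points for libraries and lines for group means. Slc18a3, Slc5a7 and Chrna3 of both 129 libraries lie below every BL6 library, and Ache of all 4 hybrid libraries lies under 1% of Tubb3, against 9.58% to 17.1% in BL6.

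The lower Chrna3 of 129 MN, with Chrna4 not called, also showed in the ratio of these alpha subunits, which is not a separate result. Per kilobase of exon, the ratio of Chrna4 to Chrna3 CPM was 18.9 and 38.6 in 129 MN. It was 4.32 in 129CAS MN, 2.21, 4.82 and 3.15 in CAS129 MN, 3.78 in CAST MN and 2.11 to 4.44 in BL6 MN. The 129 libraries thus stood apart from the other 12 MN libraries, which lay between 2.11 and 4.82. The Chrna3 level behind these ratios rested on 64 and 45 counts in the 129 libraries.

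The CAST motor neuron library had high values throughout without a call. Its levels were 13.3 CPM for Chat, 159 CPM for Slc18a3, 172 CPM for Slc5a7, 237 CPM for Ache, 14.8 CPM for Chrna3, 53.2 CPM for Chrna4, 57.2 CPM for Chrna7 and 2.70 CPM for Chrnb4. Slc5a7, Ache and Chrna7 exceeded all 7 BL6 MN libraries, as did 24.9% of the 14904 genes, and the other 5 fell within the BL6 range. With 1 library, edgeR called 0 of 8 genes and DESeq2 called 0 (12.3% of all genes called with edgeR, 5.76% higher and 6.58% lower), while 3 had an unadjusted p under 0.05: Slc5a7 (log2 fold change 0.70, SE 0.28), Ache (1.30, SE 0.49) and Chrna7 (1.02, SE 0.43). Without BL6 MN replicate 2, the log2 fold changes were larger for Slc18a3 (1.05), Slc5a7 (0.82), Ache (1.55), Chrna4 (1.05) and Chrna7 (1.24). The CAST MN library was also at the upper end for neuronal markers, with 4049 CPM for the pan-neuronal sum and 1248 CPM for Tubb3. Relative to Tubb3, its Slc5a7 was 13.8% and its Chrna7 4.59%, both inside the BL6 MN range, and its Ache was 19.0%, above the BL6 range.

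CAS129 motor neurons were lower than BL6 motor neurons for 7 of the 8 genes, with Chrnb4 not called, where 59.5% of genes were called, 32.5% as lower and 27% as higher. The largest difference was in Ache, at 1.15, 1.68 and 2.93 CPM in CAS129 MN and 47.1 to 169 CPM in BL6 MN, a log2 fold change of -5.59 (SE 0.55, adjusted p = 2.042e-06). Slc18a3 (-2.04, SE 0.38, adjusted p = 0.0004988) and Chrna7 (-2.02, SE 0.36, adjusted p = 0.0003493) followed. Ache, Slc18a3, Slc5a7 and Chrna7 were the 4 genes for which all CAS129 MN libraries lay below all BL6 MN libraries, a pattern held by 27.9% of the 14904 genes.

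The smaller differences were less firm. Slc5a7 was lower by a log2 fold change of -0.96 (SE 0.20, adjusted p = 0.001267), and this held in all 21 alternative settings. Chat (-1.43, SE 0.43, adjusted p = 0.01206) lost its call without CAS129 replicate 1 (adjusted p = 0.06504) and without replicate 2 (adjusted p = 0.05219). Chrna4 (-1.17, SE 0.38, adjusted p = 0.01681) lost it without CAS129 replicate 1 (adjusted p = 0.08492), and Chrna3 (-1.33, SE 0.52, adjusted p = 0.04235) lost it in 10 of 21 settings (adjusted p up to 0.1357). Without CAS129 replicate 1, 4 of the 8 genes were called. Over all genes, 8835 were called in the reported fit and 7439 to 9120 with a library left out. Chrnb4 had a log2 fold change of 0.21 with a 95% interval of -1.39 to 1.81.

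Neuronal and pluripotency markers also differed between CAS129 and BL6 MN. All 8 pan-neuronal markers were called lower in CAS129 MN, 1 of them, Map2, with 0 counts in every hybrid library. The other 7 summed to 442 to 557 CPM in CAS129 MN and 1177 to 3513 CPM in BL6 MN. Tubb3 was 271, 311 and 329 CPM in CAS129 MN and 436 to 1152 CPM in BL6 MN (log2 fold change -1.10, SE 0.27, adjusted p = 0.003798). Pou5f1, the pluripotency factor Oct4, was still at 172, 171 and 64.5 CPM in CAS129 MN, with 745 and 860 CPM in CAS129 PSC. The part of these cells in the lower values was not tested. Relative to Tubb3, 2 of the 8 genes, Ache and Chrna7, lay below all BL6 MN libraries, as did 11.2% of the 14904 genes: Ache at 0.423% to 0.893% in CAS129 MN and 9.58% to 17.1% in BL6 MN, and Chrna7 at 1.75% to 2.40% in CAS129 MN and 3.43% to 5.31% in BL6 MN. Without the 3 CAS129 MN libraries, 7 of 8 genes were called higher in MN than in PSC, where 36.1% of 15469 genes were called higher.

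Against MN of the 129 strain, CAS129 MN was lower for Ache, Chrna4 and Chrna7 and higher for Chrna3 (56.7% of genes called, 31.4% lower and 25.2% higher, with a median over all genes of -0.14). Ache was at 1.15, 1.68 and 2.93 CPM in CAS129 MN and 54.5 and 77.0 CPM in 129 MN (log2 fold change -5.04, SE 0.59, adjusted p = 1.168e-05), a call that held in all 21 settings. Chrna7 was at 4.75, 7.37 and 7.88 CPM in CAS129 MN and 14.3 and 23.6 CPM in 129 MN (-1.43, SE 0.42, adjusted p = 0.01053), and Chrna4 had a log2 fold change of -1.29 (SE 0.46, adjusted p = 0.02745). Chrna3 was at 4.42, 3.35 and 4.95 CPM in CAS129 MN and 1.497 and 1.114 CPM in 129 MN. Its log2 fold change of 1.75 (SE 0.68, adjusted p = 0.04226) lost the call in 9 of 21 settings, although the libraries did not overlap. Without 129 replicate 2, 1 gene, Ache, remained called. Without CAS129 replicate 1 and without replicate 3 there were 2, Ache and Chrna7. Over all genes, 8408 were called in the reported fit and 6104 to 9119 with a library left out.

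The 129CAS hybrid library lay above the CAS129 libraries for all 8 genes, and its Ache lay under that of every inbred MN library. It had 12.6 CPM for Chat, 65.8 CPM for Slc18a3, 183 CPM for Slc5a7, 6.11 CPM for Ache, 14.1 CPM for Chrna3, 58.2 CPM for Chrna4, 26.97 CPM for Chrna7 and 2.81 CPM for Chrnb4. All 8 values exceeded every CAS129 MN library, as did 40.8% of the 14904 genes, which with 1 library is a description without a test. Against the BL6 MN libraries, Slc5a7 and Chrna4 were above the range, Ache below it and the other 5 genes inside, where 30% of the 14904 genes lay above and 31.7% below. Pou5f1 had 0 CPM and Tubb3 725 CPM in the 129CAS library, and its pan-neuronal sum was 1684 CPM.

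Low Ache therefore marked both hybrid groups, whose 4 libraries had 1.15 to 6.11 CPM while the 10 MN libraries of inbred strains had 47.1 to 237 CPM. Such a pattern was shared by other genes. There were 8861 genes with means of at least 10 CPM in CAST, 129 and BL6 MN. Of these, 557 (6.29%) were at least 8-fold lower in both hybrid groups than in each inbred group, and 0 were at least 8-fold higher. Genes low in an inbred group were left out by that minimum, so the counts of lower and higher genes cannot be compared. Among the genes listed for this work, the 557 lower genes included Map2, a neuronal microtubule protein gene, and Ly6h, a nicotinic receptor modulator. Map2 had 0 CPM in all 4 hybrid MN libraries and in both CAS129 PSC libraries, and 390.2 to 597.0 CPM as means of the inbred MN groups. The sources used here do not say how hybrid reads were assigned to genes, and the part of that step in the Ache values was not tested.

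Among the 7 BL6 MN libraries, mean levels per kilobase of exon ordered the genes, although the ranges of most neighbours in that order overlapped. Slc18a3 stood first at 37.6 CPM per kb (16.5 to 71.9), followed by Ache at 20.2 (10.2 to 36.5) and Slc5a7 at 18.4 (12.7 to 25.04). The ranges of these genes all overlapped. Chrna7 at 6.10 and Chrna4 at 6.04 CPM per kb came next and overlapped. Chat at 2.17 and Chrna3 at 2.05 overlapped too, and Chrnb4 was last at 0.334 CPM per kb. The range of Chrna4 (from 2.98) reached those of Chat (up to 3.18) and Chrna3 (up to 5.09). That of Chrnb4 (up to 0.797) reached that of Chrna3 (from 0.743). Slc18a3 thus exceeded Chat, with which it shares its locus, by a ratio per kilobase of 13.0 to 22.6 (median 16.2) in BL6 MN. The ratio was 10.2 in 129CAS MN, 7.74 to 19.3 in CAS129 MN, 23.3 in CAST MN and 12.5 and 13.1 in 129 MN, so that the excess was present in all 14 MN libraries. Exon length here joins all annotated exons of a gene, which need not be the length of the transcripts present. Reads of unspliced Chat RNA across Slc18a3 cannot be told from those of Slc18a3. The part of either in this ratio was not tested.

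The ratio of the choline transporter to the vesicular transporter was high in the hybrids. Slc5a7 over Slc18a3 per kilobase was 1.19 in 129CAS MN and 1.44, 0.861 and 0.920 in CAS129 MN. It was 0.462 in CAST MN, 0.543 and 0.514 in 129 MN and 0.348 to 0.945 (median 0.496) in BL6 MN. Of the 4 hybrid libraries, 2 lay above every library of the inbred strains and 2 lay within the BL6 range.

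**Figure D4:**
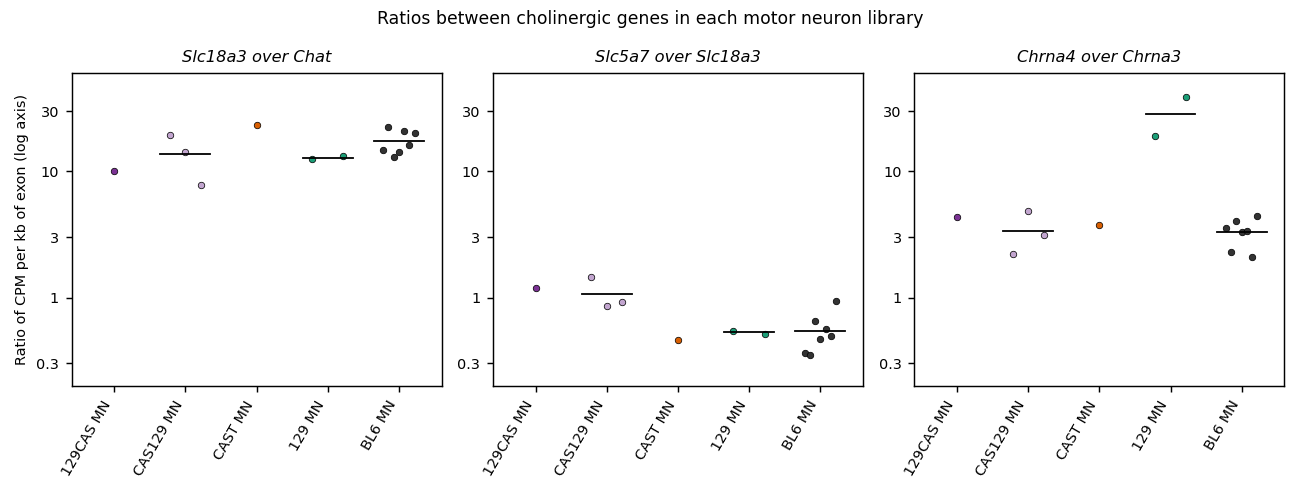
Ratios of CPM per kilobase of exon between pairs of cholinergic genes in each motor neuron library, on log axes, with points for libraries and lines for group means. The Chrna4 to Chrna3 ratio of the 129 libraries (18.9 and 38.6) lies far above the other groups, and the Slc18a3 to Chat ratio exceeds 7 in all 14 libraries.

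Spread within BL6 MN was wide. BL6 MN replicate 2 had the highest value of all 8 genes, at 14.9 CPM for Chat, 173 CPM for Slc18a3, 141 CPM for Slc5a7, 169 CPM for Ache, 26.8 CPM for Chrna3, 58.2 CPM for Chrna4, 47.3 CPM for Chrna7 and 2.97 CPM for Chrnb4. The same library had the highest Tubb3 of BL6 MN (1152 CPM) and 143 CPM of Gfap, an astrocyte filament gene with a median of 7.56 CPM in the group. Over the 7 libraries, the log2(CPM + 1) of Ache followed that of Chrna7 (Pearson r = 0.945, Spearman rho = 0.929) and Chrna3 (r = 0.882, rho = 0.964). Chat followed Slc18a3 less evenly (r = 0.88, rho = 0.536) and Chrna7 weakly (r = 0.134, rho = 0.5). These are descriptions over 7 libraries, the high replicate 2 among them.

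The genes whose log2(CPM + 1) followed that of Chat most closely over the 14 MN libraries, among 13785 genes with a mean of at least 1 CPM, were Kcnv1 (Pearson r = 0.92), Ssx2ip (0.881), Stat3 (0.867), Scn3b (0.857) and Zfp612 (0.854), a description over libraries of 5 genotypes and unequal depth. Kcnv1 encodes a silent potassium channel subunit and Scn3b a sodium channel beta subunit. Within the 7 BL6 MN libraries the values were 0.876 for Kcnv1, 0.748 for Ssx2ip, 0.949 for Stat3, 0.561 for Scn3b and 0.5 for Zfp612.

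Other genes of acetylcholine signalling changed in part. Of the 11 remaining nicotinic subunits, 6 passed the filter between MN and PSC, of which 1 was higher and 4 lower. Chrna5, the accessory subunit next to Chrna3 and Chrnb4, was higher (log2 fold change 1.09, SE 0.46, adjusted p = 0.03944). Chrna9, an alpha subunit best known from hair cells, was lower (-3.08, SE 0.73, adjusted p = 0.0009826), as was the muscle subunit Chrna1 (-2.02, SE 0.51, adjusted p = 0.001814). The median over the 6 was -2.55. These levels were low, with means of 1.27 CPM for Chrna9 and 0.851 CPM for Chrna1 over the 17 libraries. Chrnd, with 0 counts in MN and 54 in PSC, and Chrna6, with 2 and 27, passed the filter through PSC alone. Chrna9, with 31 counts in MN and 194 in PSC, also needed PSC libraries to pass it. The median is therefore not set against alpha 3, 4 and 7.

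Muscarinic receptors were represented mainly by Chrm2 and Chrm3, which couple to different G proteins. Of 5 genes, 3 passed the filter and 2 were higher in MN. Chrm2 had a mean of 44.8 CPM in CAS129 MN, 77.4 CPM in CAST MN and a mean of 23.4 CPM in BL6 MN, with 0 counts in all PSC libraries, at least 667-fold higher at a floor of 3 counts over the 6 PSC libraries. Chrm3 had 13.5, 63.7 and 26.2 CPM in the same MN groups and 4 counts over the PSC libraries (adjusted p = 2.627e-10). Against BL6 MN, CAS129 MN was lower for 1 of 4 muscarinic genes tested, Chrm3 (log2 fold change -0.94, SE 0.35, adjusted p = 0.03375), and Chrm2 was not called (0.95, SE 0.45, adjusted p = 0.08492).

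The genes around supply and breakdown showed a mixed picture, 2 of 5 higher and 1 lower. Bche, which encodes the second cholinesterase, was higher in MN (3.76, SE 0.62, adjusted p = 3.126e-05), as was Colq, the collagen tail that anchors Ache (2.79, SE 0.63, adjusted p = 0.0006405). Slc44a1, a choline transporter-like protein gene, was lower (-0.86, SE 0.15, adjusted p = 5.031e-05). Bche did not share the low Ache values of the hybrids: it had 16.0 CPM in 129CAS MN, 10.4 to 14.4 CPM in CAS129 MN, 16.6 CPM in CAST MN, 19.0 and 24.5 CPM in 129 MN and 5.83 to 13.3 CPM in BL6 MN.

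Of 5 nicotinic receptor chaperones and modulators, 4 were higher in MN and 1 lower. Lynx1, a toxin-like protein gene that restrains nicotinic receptors, was higher (5.96, SE 0.39, adjusted p = 7.187e-10), as was Ly6h (7.27, SE 0.66, adjusted p = 2.895e-08), and Ly6e was lower (-1.25, SE 0.24, adjusted p = 0.0001767). In 129 MN against BL6 MN, 1 of the 5, Lynx1, was lower (-1.38, SE 0.33, adjusted p = 0.005095) and 4 were not called.

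Of 8 transcription factors tied to cholinergic identity, 5 were higher in MN and 1 lower. The lower one was Rest, a repressor of neuronal genes (-2.07, SE 0.23, adjusted p = 3.145e-07), at 152 to 242 CPM in CAS129 MN, 57.9 CPM in CAST MN and 43.1 to 111 CPM in BL6 MN, and 336 to 434 CPM in PSC. Isl1, a LIM homeodomain factor of motor neurons, was higher (6.12, SE 0.49, adjusted p = 6.789e-09).

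Isl1 was high in the CAST and 129CAS MN libraries. It had 68.9 CPM in 129CAS MN, 7.37 to 12.8 CPM in CAS129 MN, 82.3 CPM in CAST MN, 10.8 and 14.7 CPM in 129 MN and 7.19 to 19.4 CPM in BL6 MN. In CAST MN against BL6 MN it was called higher with 1 CAST library (log2 fold change 2.40, SE 0.34, adjusted p = 0.0004577).

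Of 4 neuromuscular synapse organisers tested, 1, Dok7, was higher in MN (3.94, SE 0.66, adjusted p = 3.645e-05) and 1, Rapsn, was lower (-4.69, SE 0.52, adjusted p = 2.753e-07). Muscle receptor subunits were higher in 129 MN than in BL6 MN. Chrna1 had 5.36 and 6.04 CPM in 129 MN and 0.137 to 1.43 CPM in BL6 MN (log2 fold change 3.11, SE 0.48, adjusted p = 0.0002561). Chrnb1 had 20.9 and 25.4 CPM in 129 MN and 5.63 to 10.6 CPM in BL6 MN (1.37, SE 0.24, adjusted p = 0.0007995). Of 6 skeletal muscle markers tested in the same comparison, 5 were higher in 129 MN and 1 lower, and their part in these values was not tested.

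The cultures also held genes of other transmitters. Of 9 such genes tested between MN and PSC, 6 were higher and 2 lower. Slc17a6, the vesicular glutamate transporter gene of spinal neurons, had 0 counts in PSC and was at least 850-fold higher in MN, with 5.56 to 13.8 CPM in CAS129 MN, 66.5 CPM in CAST MN and 12.8 to 94.2 CPM in BL6 MN. The inhibitory genes Slc32a1 (5.46, SE 0.9955, adjusted p = 8.951e-05) and Slc6a5 (8.16, SE 0.87, adjusted p = 2.038e-07) were higher as well. In 129 MN against BL6 MN, these inhibitory genes were lower (Slc32a1 -5.24, SE 0.97, adjusted p = 0.0009888, and Slc6a5 -4.69, SE 0.87, adjusted p = 0.001073), while Slc17a6 was not called (-0.05, SE 0.52, adjusted p = 0.9486).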

How the data were processed

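The authors deposited whole-number read counts per gene, without normalisation, in 1 table of 27071 Ensembl identifiers. For the libraries used, the submitters' processing notes name STAR. The counting program, its strand setting and the reference behind the hybrid counts: not given in the sources used here. Of 28 columns, 20 matched a sample by title; 8 columns and 7 samples without a matched column were not used. Identifiers were matched to GENCODE M21 on GRCm38 (27030 of 27071).

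Counts were scaled by TMM and tested by quasi-likelihood in edgeR 4.0.16 (R 4.3.3), with genes at 1 CPM in at least 2 libraries of each fit and Benjamini-Hochberg adjustment over all genes, threshold 0.05. Standard errors and 95% intervals come from the F statistic and its degrees of freedom. The fits were: BL6, CAST and CAS129 libraries with genotype as a term; all 8 groups; PSC alone; MN alone. The edgeR steps were tested on simulated data. Alternatives were other scalings and filters, DESeq2 1.42.0, a replicate block, left-out libraries and fits of the compared groups alone. Replicates of a group differed beyond sampling noise (28 pairs, chi-square over its degrees of freedom at least 2.96), so none was counted as a copy. Some pairs were closer than others. In BL6 MN, this ratio was 2.96 for replicates 5 and 6 and 9 for replicates 3 and 4, and 14.79 to 120.66 for the other pairs. In CAS129 MN it was 3.38, 7.32 and 7.66. Whether close libraries share a culture is not given in the labels, and the reported fits took each library as a separate replicate. Depth ran from 4497912 to 44572794 counts per library; intervals of summed counts are exact and cover counting error only.

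The 9 genes, the other gene lists and the tests were chosen with earlier results of these data known. In each other list, counts of calls are given and up to 3 called genes of highest mean CPM between MN and PSC are named; others named were chosen after their values were seen. A gene that this rule names is not reported here. Likeness to Chat is the Pearson correlation of log2(CPM + 1) over MN libraries.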

Additional observations from a re-analysis of the deposited data

Results flagged for a closer look

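Within the 7 BL6 motor neuron libraries, replicate 2 stood apart from the others in 3 of the 8 genes by Dixon's test, in which the gap to the next library is divided by the range of the group and a ratio above 0.568 counts as apart. Slc18a3 had 173.4 CPM in that library, against 93.1 CPM in the next (ratio 0.601). Chrna3 had 26.79 CPM, against 11.3 CPM in the next (ratio 0.679). Chrna7 had 47.25 CPM, against 29.4 CPM in the next (ratio 0.579). Chance flags about 1 in 20 groups, and 8 were tested here, all in the same libraries. Groups of 3 or fewer libraries were not tested in this way.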

How the results depend on the processing

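Over 2030 alternative values of single genes, 0 reversed a call, 29 lost a call and 32 gained one. Members called in CAS129 against BL6 PSC came to 1 with upper-quartile scaling, no filter, a 3 CPM filter, DESeq2 or a replicate block (0 to 1 with a library left out). Members called were 3 for the CAS129 minus BL6 difference of changes with DESeq2, and 3 for MN against PSC in CAST with the compared groups alone. With a library left out, members called ranged from 0 to 5 for CAST against BL6 MN, 4 to 7 for CAS129 against BL6 MN and 1 to 4 for CAS129 against 129 MN. Genes called for CAST against BL6 PSC were 1455 in the reported fit, 2682 without a filter, 2222 with DESeq2 and 226 to 2105 with a library left out. For the CAST minus BL6 difference they were 1153, and 1952 with DESeq2, 500 with the replicate block, 577 with the compared groups alone and 570 to 2567 with a library left out. For the CAS129 minus BL6 difference they were 2884, and 1887 with the replicate block and 1409 to 3664 with a library left out. For CAST against BL6 MN they were 1831, and 766 with the replicate block, 895 with the compared groups alone and 1550 to 3805 with a library left out. They ranged from 2800 to 6324 for 129 against BL6 MN and from 2132 to 3657 for CAS129 against BL6 PSC with a library left out. The cause was not tested. The labels do not tie replicate numbers to a shared source, and deviations of same-numbered libraries correlated at 0.035 to 0.324 between PSC groups and -0.108 to 0.377 over all groups, so the numbers were not taken as pairs. With the block, the CAS129 calls for Chrna3 against BL6 MN (adjusted p = 0.0968) and Chrna4 against 129 MN (adjusted p = 0.09418) were lost. PSC values of Chat, Slc18a3, Slc5a7 and Ache rest on 3 to 40 counts over 6 libraries, and groups of 1 or 2 libraries limit the rest.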
